A study of Mus musculus with 8 samples.

Results

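The adenylyl cyclase genes Adcy1, Adcy2, Adcy3, Adcy5, Adcy6, Adcy7, Adcy8 and Adcy9 were followed through the 8 neuronal subtypes of the mouse stellate ganglion, the sympathetic ganglion that supplies the heart and the forelimbs. They were chosen as a gene family, with their levels by subtype already known, so those levels are given as a description. All 8 are among the 19224 genes of the table. The data come from 8 C57BL6/J mice of 1 condition, aged 8 to 10 weeks and male per the study's methods, all of which had received an adeno-associated virus coding for GFP in the heart and another coding for tdTomato in the front paws. Left and right ganglia were combined, dissociated and captured with the 10x system, which tags 1 end of each captured RNA with a unique molecular identifier (UMI), so that a level is not divided by transcript length and compares 1 gene between cells better than it compares genes. The study named 1303 cells neurons and divided them into the noradrenergic subtypes NA1a, NA1b, NA1c, NA2 and NA3, the cholinergic Ach1 and Ach2 and the glutamatergic Glut.

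Adenylyl cyclases make the second messenger cyclic AMP from ATP. All membrane-bound forms are switched on by the G protein subunit Gs, and they differ in what else they respond to. Adcy1, Adcy3 and Adcy8 encode forms that calcium and calmodulin stimulate, Adcy2 and Adcy7 encode forms that G protein beta and gamma subunits enhance, Adcy5 and Adcy6 encode forms that calcium and Gi inhibit, and Adcy9 encodes a form that is largely insensitive to forskolin. In neurons, cyclic AMP acts through protein kinase A, exchange factors and cyclic nucleotide-gated channels and tunes excitability, transmitter release and gene expression. In the GRCm38 build with the GENCODE annotation, Adcy1 lies at chr11:7063489-7178506 (plus strand), Adcy2 at chr13:68620043-68999541 (minus), Adcy3 at chr12:4133103-4213525 (plus) and Adcy5 at chr16:35154877-35305738 (plus). Adcy6 lies at chr15:98589973-98610076 (minus), Adcy7 at chr8:88272403-88329962 (plus), Adcy8 at chr15:64697084-64922296 (minus) and Adcy9 at chr16:4287529-4420498 (minus).

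The RefSeq promoter windows of GRCm38.p6 matched 6 of the 8 genes, with 9 windows. Adcy6 and Adcy8 had none. The 250 bases before the start are shown for Adcy1, whose level set NA1b apart, for Adcy7, which was highest in NA1a among the noradrenergic subtypes, and for Adcy9, which was the most evenly spread over NA1a, NA1b and NA1c. They are Adcy1 at chr11:7063183-7063432, the first of the 3 Adcy7 windows at chr8:88282742-88282991 and Adcy9 at chr16:4420499-4420748 on the minus strand. The Adcy1 and Adcy9 windows lie outside the annotated genes, and the Adcy7 window lies within the annotated gene, downstream of an earlier start. Capitals mark a GC box (GGGCGG, or CCGCCC on the other strand) or the short cyclic AMP response motif (TGACG, or CGTCA on the other strand).
Adcy1: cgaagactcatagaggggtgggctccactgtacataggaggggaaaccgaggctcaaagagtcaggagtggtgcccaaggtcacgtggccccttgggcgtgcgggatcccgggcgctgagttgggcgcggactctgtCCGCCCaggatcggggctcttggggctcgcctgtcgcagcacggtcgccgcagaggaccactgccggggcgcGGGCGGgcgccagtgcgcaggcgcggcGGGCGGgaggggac
Adcy7: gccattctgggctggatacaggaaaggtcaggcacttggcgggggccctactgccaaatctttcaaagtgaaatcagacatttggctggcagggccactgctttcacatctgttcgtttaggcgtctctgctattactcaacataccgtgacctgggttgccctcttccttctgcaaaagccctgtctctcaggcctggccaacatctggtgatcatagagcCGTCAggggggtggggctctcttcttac
Adcy9: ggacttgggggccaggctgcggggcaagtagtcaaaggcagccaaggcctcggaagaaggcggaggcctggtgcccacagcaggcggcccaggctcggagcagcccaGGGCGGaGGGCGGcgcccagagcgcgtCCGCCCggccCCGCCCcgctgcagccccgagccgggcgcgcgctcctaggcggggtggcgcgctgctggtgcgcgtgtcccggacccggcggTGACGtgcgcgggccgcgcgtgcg
The Adcy1 window held 3 GC boxes, 71.2% G and C bases and 26 CpG dinucleotides, more CpG than 90.4% of all 32851 windows of this length. The Adcy9 window held 4 GC boxes and 34 CpG, more than 96.5% of windows, and the Adcy7 window 0 GC boxes and 5 CpG, against a median of 6. A GC box was present in 6 of the 9 windows of these genes and in 32.7% of all windows. The short response motif, which is also part of the full one, was present in 2 of the 9, the Adcy7 and Adcy9 windows shown, and in 17.8% of all. The full motif TGACGTCA was in 0 of the 9 and in 1.55% of all, which says only that these letters are not in these bases.

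Values per mouse rest on 5 mice (mice 1 to 5, with 170, 235, 165, 235 and 197 neurons), whose names each matched 1 sample. The other 3 names, with 301 neurons, did not, and their neurons enter pooled values only. The study's supplement lists the samples in 2 batches, with mice 1 to 5 all in 1 of them and the other 3 samples in the other, so that a difference between mice 1 to 5 and the unmatched names cannot be told apart from a difference between batches. A level is the mean of UMIs per 10000 UMIs over the neurons of a subtype in a mouse with at least 10 of them. NA2 and the 3 NA1 subtypes had such a value in 5 mice, NA3 in 3, Ach2 in 2 and Ach1 in 1. The median depth in mice 1 to 5 ran from 2162 UMIs per neuron in Ach1 to 8181.5 in NA1a. Of the cell barcodes, 21 occurred in 2 to 5 libraries each, and 20 of them had the same subtype everywhere. They belonged to 73 neurons, 55 of the 150 NA2, 15 of the 46 Ach2 and 3 of the 17 Glut neurons of mice 1 to 5 and 0 of the others, so that NA2 and Ach2 values are also given without them. Chat, the enzyme that makes acetylcholine, was found in 32.3% of the Ach2 neurons and in 0 of the 64 Ach1 neurons, which goes against the cholinergic label of Ach1. The other 2 cholinergic markers did not: the vesicular acetylcholine transporter Slc18a3 was found in 9.38% of the Ach1 neurons (0.643% to 2.29% in the noradrenergic subtypes, 53.2% in Ach2) and the neuropeptide Vip in 62.5% (9.71% to 25.3%, and 96.8% in Ach2). The summed level of these 3 genes was 5.39 in Ach1, 0.398 to 0.823 in the noradrenergic means and 48.3 in Ach2. Vip alone had a mean level of 4.42 over all 64 Ach1 neurons. The noradrenergic markers also went against the label. The sum of Dbh, Th, Slc18a2 and Slc6a2 was 58.0 in Ach1, 22.8 to 44.6 in the noradrenergic means and 10.3 in Ach2. Dbh was found in 100% and Th in 82.8% of the Ach1 neurons, against 80.6% and 43.5% in Ach2. The vesicular glutamate transporter Slc17a6 was found in 5 of the 37 Glut neurons and in at most 0.322% of any other subtype. Dbh was found in 83.8% and Th in 75.7% of the Glut neurons. Pooled over the 17 Glut neurons of mice 1 to 5, the noradrenergic markers summed to 81.4, above the pooled sum of every other subtype. The 10 markers of satellite glia, the cells that wrap ganglion neurons, were all found in 6 of the subtypes, with 1 (Kcnj10) at 0 in NA2 and 6 at 0 in Glut. Their summed level was 190 to 352 UMIs per 10000 in the 3 NA3 values and 118 in the Ach1 value, against means of 5.53 to 13.5 in the other subtypes with values. The neuron markers Snap25, Syt1, Pcsk1n and Prph summed to a mean of 40.6 in NA3, against 71.0 to 99.1 in the other subtypes with values. Fibroblast markers summed to 18.2 in NA3 and 38.7 in Ach1, against 0.776 to 2.19 in the other subtypes with values. Schwann cell markers summed to 11.8 and 9.62, against 2.31 to 5.05, and immune cell markers to 1.48 and 6.23, against 0.128 to 0.850. Endothelial and smooth muscle markers were within the range of the other subtypes in NA3 and above it in Ach1 (1.83 and 0.782). The part of these differences in the NA3 and Ach1 levels below was not tested.

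Cyclase transcripts were sparse. The 8 genes together gave 1406 UMIs, and 705 of the 1303 neurons (54.1%) had a UMI of at least 1 of them. UMIs of 2 or more of the genes were found in 308 neurons (23.6%), and the most in 1 neuron was 5 genes. Adcy1 gave 341 UMIs in 232 neurons (17.8%), Adcy3 302 in 253 (19.4%), Adcy9 231 in 205 (15.7%) and Adcy6 205 in 180 (13.8%). Adcy7 gave 148 UMIs in 122 neurons (9.36%), Adcy8 117 in 99 (7.60%), Adcy2 37 in 37 and Adcy5 25 in 22. Of the cyclase genes outside the set, Adcy10, which encodes the soluble cyclase, gave 14 UMIs and Adcy4 gave 5. No subtype is known to lack cyclases, so the share of these UMIs that free RNA could give is unknown.

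Among the calcium and calmodulin stimulated forms, Adcy1 was the gene with the clearest subtype pattern, with a high level in NA1b. In NA1b the level was 1.46, 0.838, 1.59, 1.36 and 1.88 UMIs per 10000 in mice 1 to 5, a mean of 1.43 ± 0.382 (SD, n = 5 mice). In NA1a it was 0.111, 0.214, 0.290, 0.275 and 0.0966 (0.197 ± 0.0901), and in NA1c 0.340, 0.150, 0.0770, 0.240 and 0.381 (0.237 ± 0.127). The lowest NA1b mouse was thus above the highest NA1a and NA1c mouse. NA2 had 0.294, 0.111, 0.337, 0 and 0.125 (0.174 ± 0.139, and 0.154 without the shared barcodes). NA3 had 0.0606 in mouse 2, 0.646 in mouse 4 and 0.161 in mouse 5 (0.289 ± 0.313, n = 3), Ach2 0.235 and 0.251 in mice 1 and 4 and Ach1 0.120 in mouse 4. Below NA1b the order ran NA3, Ach2, NA1c, NA1a, NA2 and Ach1, and the neighbours with an SD differed by less than the larger SD. In the 37 Glut neurons, pooled, 1 UMI was found, or 0.0571 UMIs per 10000 (exact 95% Poisson interval 0.00145 to 0.318, which covers counting error only, as do all intervals here).

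**Figure D1:**
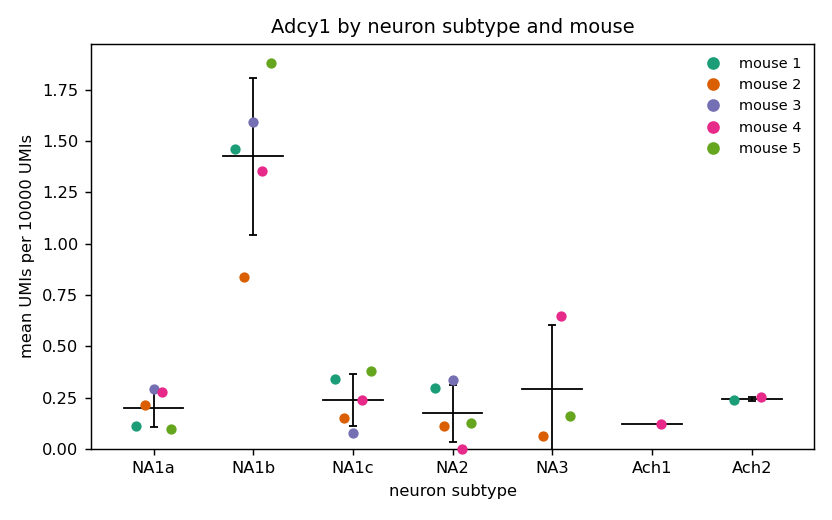
Level of Adcy1 (vertical axis, mean UMIs per 10000 UMIs) in each neuron subtype with at least 10 neurons in a mouse. Points are mice 1 to 5, lines are means and bars are SD over mice, not drawn below 0. The 5 NA1b points lie between 0.838 and 1.88 and above every other point, of which the NA3 value of mouse 4 (0.646) is the highest.

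Of all 341 Adcy1 UMIs, 60.4% were in NA1b, which held 23.9% of the neurons and 22.8% of the UMIs of all genes. In NA1b, 193 of 311 neurons had 0 Adcy1 UMIs, 66 had 1, 26 had 2 and 26 had 3 or more, up to 7, while no NA1a or NA1c neuron had more than 2. The neurons of the 3 unmatched names showed a smaller gap, with a mean level of 0.774 in NA1b, 0.532 in NA1a and 0.0848 in NA1c. As summed UMIs over all UMIs the gap between NA1b and NA1a was wider. Their 74 NA1b neurons had 33 UMIs (0.859 per 10000, exact Poisson interval 0.591 to 1.21), and their 134 NA1a neurons had 29 (0.377, 0.252 to 0.541). Their 23 NA1c neurons had 1 (0.135, 0.00342 to 0.752).

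Detection of Adcy1 rose with depth in NA1b and not in NA1a. Among neurons with fewer than 3000 UMIs, Adcy1 was found in 16.0% of 144 NA1b neurons (exact 95% Clopper-Pearson interval 10.4 to 23.0), in 17.9% of 39 NA1a neurons (7.54 to 33.5) and in 3.62% of 138 NA1c neurons (1.19 to 8.25). With at least 3000 but fewer than 6000 UMIs the shares were 38.9% of 72, 16.2% of 99 and 8.20% of 61. With 6000 UMIs or more they were 70.5% of 95 NA1b neurons (60.3 to 79.4), 16.3% of 178 NA1a neurons (11.2 to 22.6) and 30.0% of 40 NA1c neurons (16.6 to 46.5). The intervals of NA1a and NA1b thus overlapped in the shallowest neurons and not in the deepest. Neurons are pooled over mice here, so this does not measure the spread between mice. The NA1a neurons of the unmatched names were shallower, with medians of 4024 and 6374 UMIs in those with less and more Npy. In mice 1 to 5 the NA1a median was 8181.5, so that depth and batch are mixed in NA1a. These depth limits were set after the data were seen. Per mouse, Adcy1 was found in 47.3% ± 18.0 of the NA1b neurons (n = 5), 14.3% ± 7.00 of the NA1a neurons and 9.56% ± 4.04 of the NA1c neurons. In neurons thinned at random to 2000 UMIs, with shallower ones left out, these shares were 22.1% ± 5.93, 5.11% and 3.00%.

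**Figure D2:**
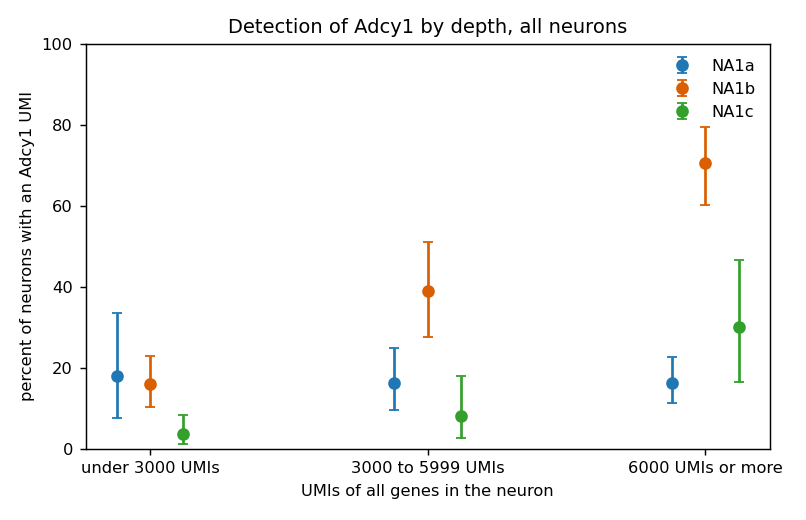
Percent of neurons with at least 1 Adcy1 UMI (vertical axis) in NA1a, NA1b and NA1c neurons of all 8 mouse names, by the number of UMIs of all genes in the neuron (horizontal axis, 3 ranges). Points are pooled shares and bars are exact 95% Clopper-Pearson intervals. The NA1b share goes from 16.0% to 70.5% while the NA1a share stays between 16.2% and 17.9%.

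Adcy3, a calcium-responsive form best known for odour signalling and neuronal cilia, was highest in NA1c. Its level there was 0.576, 1.07, 0.668, 0.730 and 0.649 in mice 1 to 5 (0.739 ± 0.193), and in NA1a 0.226, 0.364, 0.527, 0.361 and 0.417 (0.379 ± 0.109). The values did not overlap, and each mouse was higher in NA1c. NA1b spread from 0.224 in mouse 5 to 1.03 in mouse 2 (0.572 ± 0.306) and overlapped both. Adcy3 was lower in NA2 (0.180 ± 0.132, and 0.217 without the shared barcodes) and in NA3 (0.0988 ± 0.127, n = 3), and it was 0.712 and 0.495 in the 2 Ach2 values and 0.170 in Ach1. From NA1c down the order was Ach2, NA1b, NA1a, NA2, Ach1 and NA3, and only the step from NA1a to NA2 exceeded the SD of both. In the unmatched names the order of NA1a and NA1c was not seen. The summed level was 0.545 (0.393 to 0.737) in NA1a, from 42 UMIs, and 0.540 (0.147 to 1.38) in NA1c, from 4, and the mean levels were 0.636 and 0.387.

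Adcy8, like Adcy1 a calcium-stimulated form of the brain, was found at the highest levels in Ach2 and NA1b. The Ach2 values were 0.431 and 0.371 (0.401 ± 0.0428). In thinned neurons the order of these subtypes turned, with means of 0.156 in Ach2 and 0.337 in NA1b. NA1b had 0.117, 0.527, 0.190, 0.130 and 0.470 (0.287 ± 0.196), above NA1a in 4 of 5 mice, and NA1a had 0.112 ± 0.0591. The range of NA1b overlapped that of NA1a, which reached 0.171. NA1c (0.0821 ± 0.0692), NA3 (0.0763 ± 0.106, n = 3) and NA2 (0.0272 ± 0.0423) followed, with differences within the SD, and the Ach1 value was 0.121. The 62 Ach2 neurons held 13.7% of all Adcy8 UMIs with 4.68% of the UMIs of all genes, and NA1b held 43.6%. Among the unmatched names the summed level was 0.390 in NA1b (15 UMIs, 0.219 to 0.644), 0.130 in NA1a (10 UMIs, 0.0623 to 0.239) and 0.541 in Ach2 (5 UMIs, 0.176 to 1.26).

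Of the forms enhanced by beta and gamma subunits, Adcy7, also known from blood and immune cells, was highest in NA1a among the noradrenergic subtypes. Its NA1a level was 0.286, 0.360, 0.244, 0.344 and 0.331 (0.313 ± 0.0474), the smallest relative spread of any of these genes in NA1a. NA1b had 0.0382, 0.169, 0.0428, 0.298 and 0.158 (0.141 ± 0.107), lower in 5 of 5 mice, and NA1c had 0.143, 0.357, 0, 0.313 and 0.104 (0.183 ± 0.149), also lower in 5 of 5, although both ranges reached into that of NA1a. In NA2 it was 0.0338 ± 0.0345 (0.0427 without the shared barcodes) and in NA3 0.0721 ± 0.0682 (n = 3), below every NA1a mouse. The 2 Ach2 values were 0.849 in mouse 1, from 3 UMIs, and 0.160 in mouse 4, which is below every NA1a mouse, and by summed UMIs the Ach2 mean (0.257) was below that of NA1a (0.354). The Ach1 value was 0. NA1a held 59.5% of all Adcy7 UMIs and 32.0% of the UMIs of all genes. In the unmatched names the same order was seen, 0.467 in NA1a (36 UMIs, 0.327 to 0.647) and 0.182 in NA1b (7 UMIs, 0.0733 to 0.375). Adcy2 was found 1 UMI at a time. The noradrenergic levels were 0.0819 ± 0.0818 for NA3 (n = 3), 0.0565 ± 0.0872 for NA2, 0.0416 ± 0.0630 for NA1b, 0.0232 ± 0.0171 for NA1a and 0.00284 ± 0.00635 for NA1c. Neighbours in this order differed by less than the larger SD except NA1a and NA1c, where NA1c was lower in 4 of 5 mice. Adcy2 was highest in Ach2, at 0.221 and 0.229, but at 0 there in neurons thinned to 2000 UMIs (0.121 in NA3), and 8 of the 62 Ach2 neurons (12.9%, 5.74 to 23.9) had a UMI.

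Of the calcium-inhibited forms, Adcy6 had 0.447 ± 0.159 in NA1c, 0.409 ± 0.297 in NA1b and 0.273 ± 0.159 in NA1a, where the gap from NA1c to NA1a was slightly above the SD of each and the ranges overlapped. NA2 had 0, 0.0490, 0.0727, 0 and 0.0327 (0.0309 ± 0.0316, and 0.0347 without the shared barcodes), below every NA1a mouse, of which the lowest was 0.0987. The NA3 mean of 0.634 ± 0.943 rested on mouse 4, with 1.72 against 0.0256 and 0.155 in mice 2 and 5. Adcy5, the main form of the striatum, was nearly absent from NA2 and the NA1 subtypes. In NA2 it was found in 0 of 175 neurons, so that a share of up to 1.71% is allowed (3 counts), a limit on neurons with a UMI and not on neurons that express the gene. NA3 had 0, 0.343 and 0.0934 in mice 2, 4 and 5, Ach1 0.177 and Ach2 0 and 0.147. Markers of satellite glia and fibroblasts were high in NA3 and Ach1 and not in Ach2. The part of these or other cells in the Adcy5 values was not tested. Adcy9 had 0.416 ± 0.212 in NA1a, 0.377 ± 0.133 in NA1b and 0.483 ± 0.149 in NA1c, with differences below the larger SD, although NA1b was below NA1c in 5 of 5 mice. It was lower than in NA1a in NA2 in 5 of 5 mice (0.198, 0, 0.204, 0.249 and 0.0455, mean 0.139 ± 0.109), with 0.134 without the shared barcodes. In the 37 Glut neurons, pooled, there were 8 UMIs of Adcy3, 7 of Adcy9, 4 of Adcy5, 3 each of Adcy6 and Adcy8, 1 of Adcy2 and 0 of Adcy7, found in 0 of the 37, so that up to 8.11% with a UMI is allowed.

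**Figure D3:**
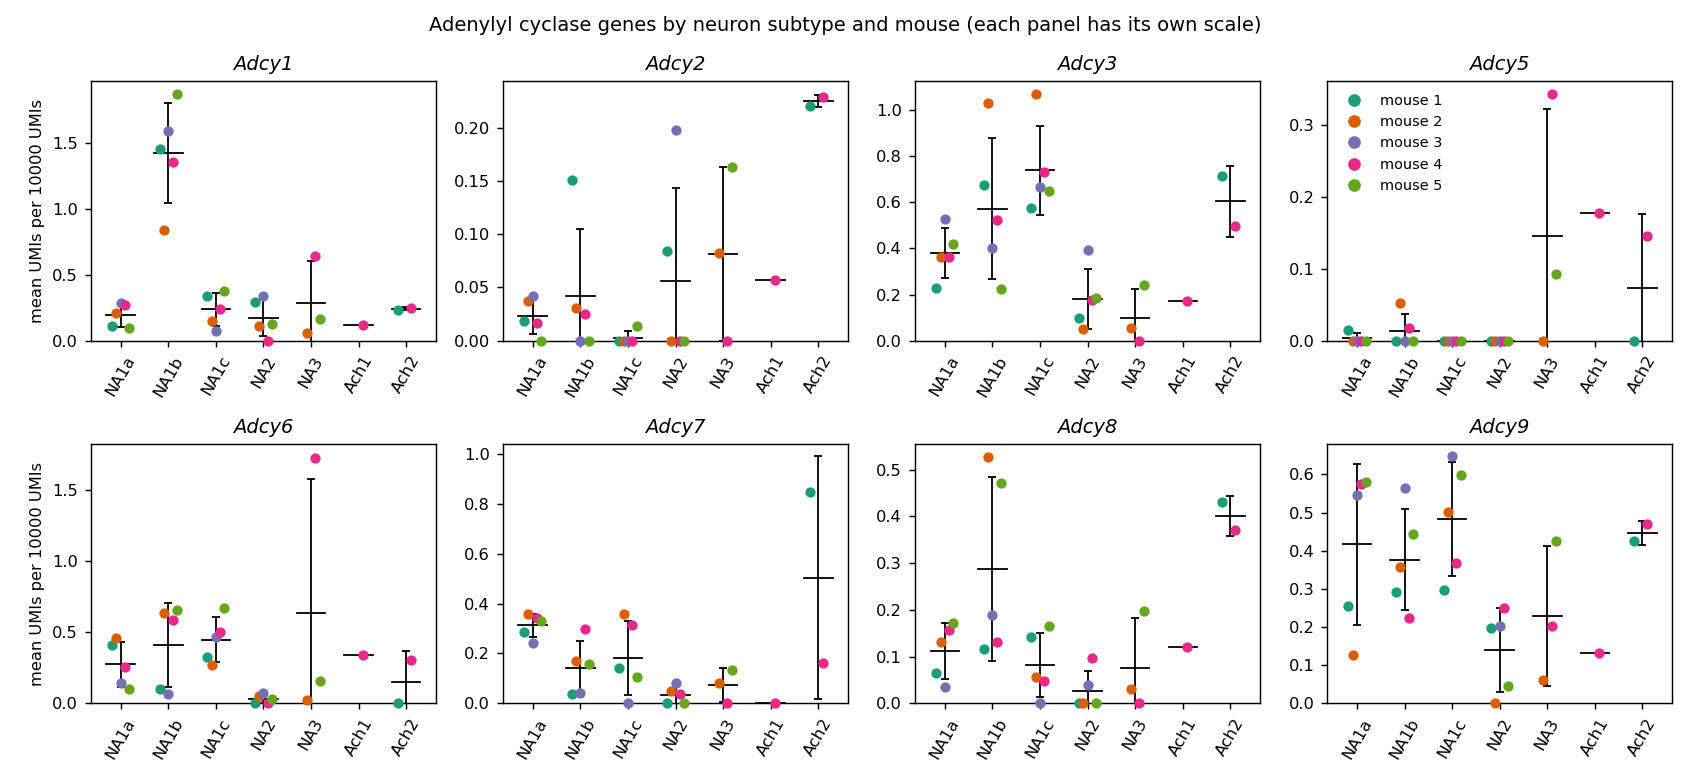
Level of the 8 cyclase genes (vertical axes, mean UMIs per 10000 UMIs, 1 scale per panel) by neuron subtype. Points are mice 1 to 5 with at least 10 neurons of the subtype, lines are means and bars are SD over mice, not drawn below 0. Adcy1 is highest in NA1b (1.43), Adcy3 in NA1c (0.739), and Adcy7 is higher in NA1a (0.313) than in the other noradrenergic subtypes, while its Ach2 points lie apart at 0.849 and 0.160.

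The subtypes differed in the sum of the family and in its make-up. The summed level of the 8 genes was highest in NA1b, at 3.27 ± 0.452 (n = 5), followed by Ach2 (2.65 ± 0.318, n = 2), NA1c (2.17 ± 0.333), NA1a (1.72 ± 0.219), NA3 (1.63 ± 1.26, n = 3) and NA2 (0.642 ± 0.414). Adcy1 took 45.9% ± 12.4 of the family's UMIs in NA1b, 11.0% ± 2.89 in NA1a and 13.4% ± 6.53 in NA1c. The 3 calcium and calmodulin stimulated genes together took 68.8% ± 5.44 in NA1b (63.7% to 74.6%), 39.2% ± 6.70 in NA1a (30.5% to 49.2%) and 51.5% ± 4.91 in NA1c. Adcy2 and Adcy7 together took 22.5% ± 3.79 in NA1a, 5.75% ± 2.52 in NA1b and 6.87% ± 6.07 in NA1c. Adcy3 was the largest share of NA1c (34.7% ± 10.2), NA2 (31.7% ± 9.71), Ach2 (23.8% ± 5.36) and NA1a (23.0% ± 5.66, where Adcy9 had 21.5% ± 8.32).

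**Figure D4:**
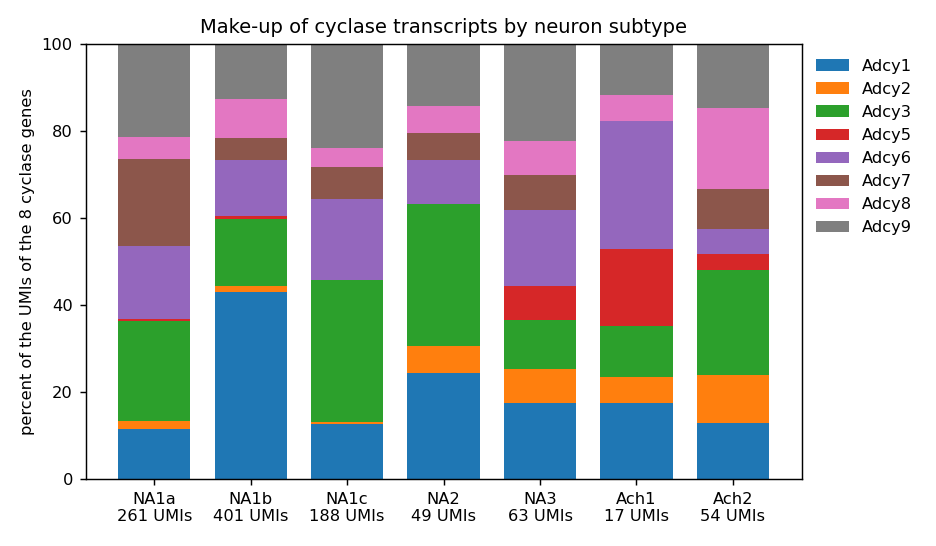
Percent of the UMIs of the 8 cyclase genes (vertical axis) that each gene gave, by neuron subtype, summed over the neurons of mice 1 to 5. The number under each bar is the family's UMIs behind it, from 17 in Ach1 to 401 in NA1b, where Adcy1 is the largest part.

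How steady these differences were over mice was measured with limma across all genes, on log2 of the level plus 0.1, with the mouse as a block. Of 19224 genes, 6185 had a level of at least 0.5 in 3 or more of the 23 profiles, a filter that 4 of the 8 cyclase genes passed (Adcy1, Adcy3, Adcy6 and Adcy9). Adcy1 was called higher in NA1b than in NA1a, 1 of 4, where 1.47% of all genes tested were called higher and 2.67% lower (adjusted p below 0.05). Its log2 difference was 2.38 with a standard error of 0.42. It was also called higher in NA1b than in NA1c (2.23, standard error 0.42, place 5 of 6185 from the top), where 0.469% of genes were called higher and 1.07% lower. Over the 13 alternatives of each of these comparisons it was called in all 13, with log2 differences of 1.01 to 2.57 and 0.96 to 2.78. The subtypes were clustered from these cells and the genes were chosen with these levels known, so nothing is read from these counts. Between NA1c and NA1a, 0 of the 4 genes were called, with Adcy3 at 0.81 (standard error 0.40), where 1.75% of genes were called higher and 3.93% lower, and 1206 of 6185 genes had an unadjusted p below 0.05.

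In NA2, 0 of the 4 genes were called higher than in NA1a (16.6% of all genes were) and 2 lower (32.0% were). These were Adcy6 (log2 difference -1.43, standard error 0.49) and Adcy9 (-1.14, standard error 0.38). The NA2 neurons of this fit held 5 UMIs of Adcy6 and 7 of Adcy9. The median of all genes was -0.23, so that relative to it both were still lower. With profiles centred on their median gene, 1581 genes were higher and 1540 lower against 1024 and 1981 uncentred, and Adcy9 was just outside the threshold (-0.87, limma adjusted p = 0.0539). Adcy9 was also not called without mouse 5 (-0.87), nor Adcy6 without mouse 1 (-1.20). In NA3, 0 of the 4 were called higher (7.29% of all genes were) and Adcy3 was called lower (-1.42, standard error 0.47), beside 11.8% of all genes and a median of -0.25. It was not called without mouse 2 (-1.30) or mouse 4 (-1.02). The summed neuron markers were also lower in NA3, at 40.6 against 89.6 in NA1a, and their part in this call was not tested.

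Without a filter, 16854 genes were tested and all 8 cyclase genes had a value. Adcy1 was again the 1 gene of the 8 called higher in NA1b than in NA1a (0.279% of all genes were) and than in NA1c (0.208% were). In NA2, Adcy7 (-1.66, standard error 0.39) and Adcy9 were called lower, beside 14.8% of all genes. In NA3, Adcy7 was called lower (-1.58, standard error 0.46), beside 3.88%, and Adcy5 higher (0.97, standard error 0.26), beside 6.16%. Of the NA3 neurons in this fit, mouse 4 gave 2 Adcy5 UMIs and mouse 5 gave 3, and the NA1a neurons gave 1. Adcy7 had 3 UMIs in the NA2 neurons, 5 in the NA3 neurons and 52 in the NA1a neurons. The size of the Adcy5 and Adcy7 differences depends on the 0.1 that was added.

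Within a subtype, neurons with much and little of Npy, the sympathetic co-transmitter neuropeptide Y that the study contrasts, were compared. The neurons of each mouse were divided at that mouse's median of Npy in NA1a, NA1b and NA1c. Npy itself sets these groups. None of the 4 cyclase genes tested was called in the NA1a neurons (1 of 5870 genes called, 0.0170%, which was Npy), the NA1b neurons (0.0511%), the NA1c neurons (0.170%) or for the difference of the effect between NA1b and NA1a (0.0341%). By limma, 180, 257, 721 and 273 genes had an unadjusted p below 0.05 in these comparisons.

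Adcy3 in NA1a was the cyclase gene with the widest separation. In the low-Npy neurons its level was 0.114, 0.270, 0.281, 0.142 and 0.0925 in mice 1 to 5 (0.180 ± 0.0891), and in the high-Npy neurons 0.339, 0.465, 0.774, 0.580 and 0.772 (0.586 ± 0.191). It was higher with high Npy in 5 of 5 mice and the groups did not overlap, yet the difference did not pass the correction over all genes (log2 difference 1.30, standard error 0.43, unadjusted p = 0.0035, limma with Benjamini-Hochberg adjusted p = 1.00). The high-Npy NA1a neurons were also deeper in 5 of 5 mice. With neurons thinned to 2000 UMIs the log2 difference was 1.24, with summed UMIs 0.92, with a pseudocount of 1 in place of 0.1 it was 0.42, and it lay between 1.08 and 1.48 when 1 mouse was left out. The NA1a neurons of the unmatched names went the same way by less, with a mean level of 0.546 with low and 0.725 with high Npy, and the counting intervals of their summed levels overlapped. The low-Npy neurons had 16 UMIs (0.517 per 10000, 0.295 to 0.839) and the high-Npy neurons 26 (0.565, 0.369 to 0.828). In NA1b the log2 difference of Adcy3 was -0.13 and in NA1c 0.50 (standard error 0.43 each), and the difference between NA1b and NA1a was -1.43 (standard error 0.61, limma adjusted p = 0.998).

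Adcy1 went the other way in NA1a, at 0.254 ± 0.0974 with low and 0.138 ± 0.0989 with high Npy. High-Npy neurons had less in 5 of 5 mice, by a log2 difference of -0.65 with a standard error of 0.49, and the groups overlapped. The adjusted p by limma was 1.00. In the unmatched names the summed level was 0.549 (0.320 to 0.879) with low and 0.261 (0.135 to 0.455) with high Npy, and the mean level 0.610 and 0.453. In NA1b, where Adcy1 is high, its level was 1.41 ± 0.434 with low and 1.44 ± 0.440 with high Npy, a log2 difference of 0.01 with a standard error of 0.49. Adcy8 in NA1b was lower with high Npy in 5 of 5 mice (0.383 ± 0.213 against 0.189 ± 0.210). Its log2 difference was -0.98 without the filter (standard error 0.50, limma adjusted p = 0.943), and in the unmatched names the mean level was 0.627 with low and 0.402 with high Npy, while the summed level was 0.386 and 0.401. Adcy6 in NA1b was also lower in 5 of 5 mice, 0.487 ± 0.341 against 0.325 ± 0.270, with adjusted p = 0.997 by limma, and in thinned neurons the log2 difference turned to 0.16. The high-Npy NA1b neurons were deeper in 1 of 5 mice.

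**Figure D5:**
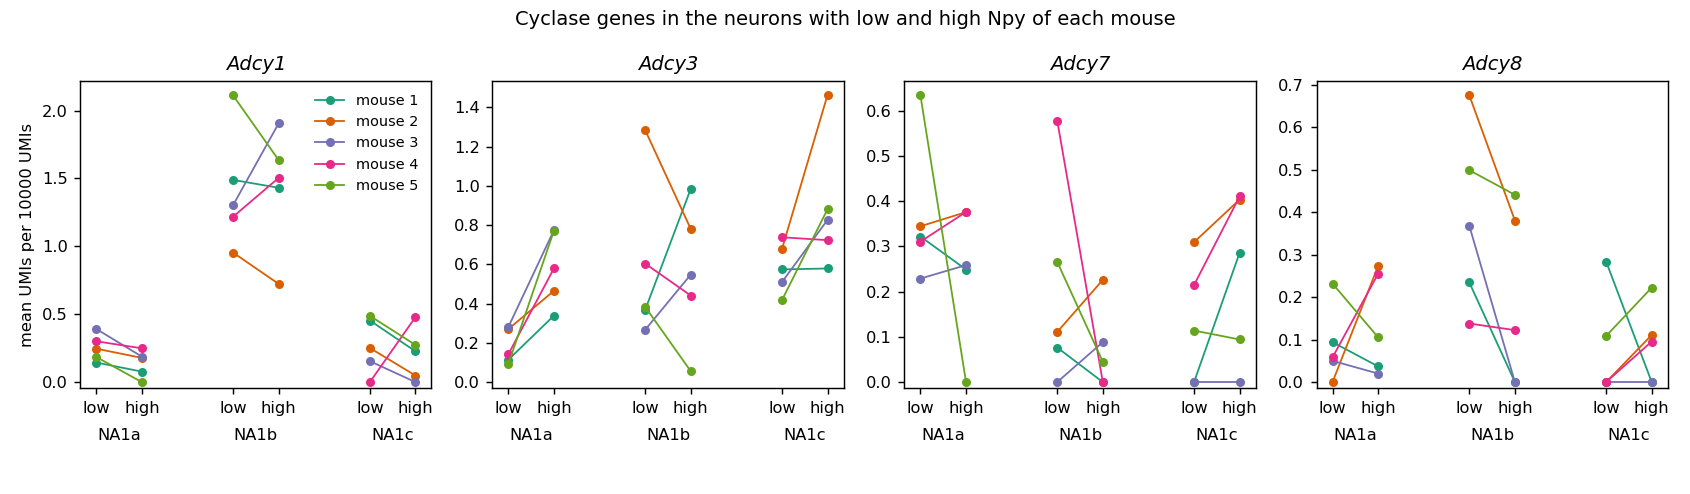
Level of Adcy1, Adcy3, Adcy7 and Adcy8 (vertical axes, mean UMIs per 10000 UMIs) in the neurons with low and high Npy of NA1a, NA1b and NA1c. Each line joins the groups of 1 mouse. The 5 Adcy3 lines of NA1a all go up, from a mean of 0.180 to 0.586, and the Adcy1 lines of NA1b go both ways around 1.4.

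The rest of the cyclic AMP pathway was described by 10 lists with 120 genes in the table, of which 54 passed the filter. Between NA1b and NA1a, 2 of the 54 were called higher and 4 lower (median log2 difference -0.14, and 0.00 over all genes), beside 1.47% and 2.67% of all genes tested. Between NA1c and NA1a, 2 were called higher and 3 lower (-0.08, and 0.01), beside 1.75% and 3.93%. In NA2, 12 were called higher and 16 lower than in NA1a (-0.08, and -0.23), beside 16.6% and 32.0%, which for the lower genes is about the same share. In NA3, 0 were called higher and 14 lower (-0.49, and -0.25), beside 7.29% and 11.8%. The neuron markers were lower in NA3 as well, and their part in these calls was not tested.

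Upstream of the cyclases, 5 genes for Gs and the receptors that couple to it were tested. In NA1b, the subtype with the most Adcy1, the receptors Sctr for secretin and Rxfp1 for relaxin were called lower than in NA1a, beside 2.67% of all genes tested. Sctr was 0.750 ± 0.721 in NA1b, 7.74 ± 1.78 in NA1a and 16.1 ± 4.21 in NA1c, and Rxfp1 was 0.665, 5.88 and 6.34. Within NA1b, both were called higher in the high-Npy neurons, the 2 genes of the 54 called in a comparison by Npy. Gnas, the gene of the Gs subunit, had 49.3 ± 9.90 in NA1b, 37.3 ± 5.12 in NA1a and 27.0 ± 4.61 in NA1c. It was called higher in NA1b than in NA1c, beside 0.469% of all genes, and in NA2 (93.3) than in NA1a, beside 16.6%. Of 11 genes for Gi/o subunits and receptors that inhibit cyclases, the alpha2A adrenergic receptor gene Adra2a was called higher in NA1b than in NA1a (0.611 against 0.0655, log2 difference 2.08), and the dopamine receptor gene Drd2 lower (0.112 against 0.602, -1.75). In NA1c, Gnao1 was called higher (6.41 against 3.67, 0.73). Of all genes tested, 1.47% were called higher and 2.67% lower in NA1b than in NA1a, and 1.75% higher in NA1c.

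Of the beta and gamma subunits that act on Adcy2 and Adcy7, 9 were tested, and Gng5 was called lower in NA1b (0.847) and NA1c (0.671) than in NA1a (1.98), with Gnb5 also lower in NA1c (0.527 against 1.20). Of all genes tested, 2.67% were called lower in NA1b and 3.93% in NA1c. Gnb1, Gng12 and Gng3 were called higher in NA2 than in NA1a, beside 16.6% of all genes. Gnb4, Gng2, Gnb5 and Gng3 were called lower in NA3, beside 11.8%.

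Downstream, 0 of 7 genes for subunits and inhibitors of protein kinase A and 0 of 5 phosphodiesterase genes, which encode the enzymes that degrade cyclic AMP, were called between NA1b or NA1c and NA1a. Of all genes tested, 1.47% were called higher and 2.67% lower in NA1b, and 1.75% and 3.93% in NA1c. At such shares, 0 calls in a list this short says little about it. In NA2, 4 of the 7 kinase genes were higher (Prkacb, Prkar1b, Prkaca and Prkar1a) and 5 of the 5 phosphodiesterase genes lower, where 16.6% of all genes tested were higher and 32.0% lower, among them Pde10a (0.623 against 2.29) and Pde3a (0.404 against 1.73). Of 7 genes for A-kinase anchoring proteins, which tether the kinase, Akap12 was called higher than in NA1a (1.16) in NA1b (2.90), NA1c (2.09) and NA2 (3.39). Of 5 CREB family genes, 0 were called in NA1b or NA1c, and Crtc3, Crtc1 and Crebbp were lower in NA2. Of 2 genes for cyclic nucleotide-gated pacemaker channels, Hcn3 was lower in NA2 (0.0539 against 0.461). The exchange factor genes Rapgef3 and Rapgef4 did not pass the filter, and Rapgef4 had 0.431 in NA1a and 0.0391 in NA1b.

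Over the 23 profiles, the genes whose log2 levels were most like Adcy1 were Ttn (Pearson's r 0.811), Slc18a1, a vesicular monoamine transporter (0.805), Ccser1 (0.770), Tmcc3 (0.724) and Ammecr1 (0.713). By Spearman's rho none of the 5 was among the 5 most alike. Adcy3 was closest to Ap3d1 (0.892), Arhgap22 (0.853), Jakmip1 (0.852), Eif4g1 (0.845) and Chd5 (0.839), of which 3 were also named by rho. Adcy6 was closest to Pan3 (0.844), Lin28b (0.823), Mbd1 (0.814), Brd7 (0.801) and Mob1b (0.798), and Adcy9 to Cnot4 (0.873), Zfp451 (0.842), Abcc5 (0.841), L3mbtl4 (0.830) and Eef2k (0.827). Profiles of a mouse share a library and profiles of a subtype share a cluster, so these values describe the pattern only.

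In single NA1b neurons, Adcy3 was found in 31 of the 118 with and in 29 of the 193 without an Adcy1 UMI, and Adcy9 in 27.1% and 12.4% of them. The NA1b neurons with an Adcy1 UMI had a median of 6915 UMIs and those without 2587. Of the 6 neurons with a GFP UMI, which marks a projection to the heart, 1 had Adcy1 and 3 had Adcy3. Of the 20 with a tdTomato UMI, 4 had Adcy1 and 4 had Adcy3, numbers too small for a comparison between the targets.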

How the data were processed

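Neurons of 8 mice were profiled by 10x single-cell RNA-seq. Per the study's methods and processing notes, the authors aligned reads with Cell Ranger 2.1.1 to mm10 with the GFP sequence added. They filtered cells by a lower and an upper limit of genes detected and by upper limits of UMIs and mitochondrial share. They then clustered the cells, and with Seurat deposited the natural log of 1 plus UMIs per 10000. Removal of doublets is not given in the sources used here, and non-neuronal cells were left out. Mouse and subtype were taken from the deposited metadata, in which 3 mouse names were not matched to 1 sample. The log was inverted and whole UMIs were recovered (100% of nonzero values within 0.01). A test of raw counts had been planned if the files held them. As they hold log values, limma 3.58.1 (R 4.3.3) was used, on log2 of the mean UMIs per 10000 plus 0.1 per mouse and subtype, with the mouse as a block, a mean-dependent prior variance and Benjamini-Hochberg adjustment at 0.05. A profile needed 10 neurons (5 per Npy group), and a gene a level of 0.5 in as many profiles as the smallest group had. The depth of mice 1 to 5 was 916296 to 1196621 UMIs in all and a median of 2722 to 4854 per neuron. Profiles of a mouse come from the same animal, and their deviations from the subtype means correlated at 0.0712 on average (42 pairs, -0.0775 to 0.232), against -0.0180 between mice (168 pairs). The 5 mice belong to 1 of the study's 2 batches.

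The named genes were the 8 cyclases, the 5 genes most like each tested cyclase, and, of 10 pathway lists, the called and most abundant genes. Members and lists were chosen with earlier results of these data known. The results of 1 of the lists are not reported here by gene. Promoter windows came from the RefSeq table. Python 3.11.15, NumPy 2.4.6, pandas 2.3.3, SciPy 1.17.1 and matplotlib 3.10.9 were used, and the fits and the likeness measure were tested on simulated data. Alternatives were no filter, a pseudocount of 1, no block, at least 5 neurons, neurons thinned to 2000 UMIs, summed UMIs, centred profiles, each mouse left out, Spearman's rho and, chosen after seeing the data, no shared barcodes.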

Additional observations from a re-analysis of the deposited data

Results flagged for a closer look

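Single mice stood apart from the rest of their group in 3 of the 30 groups of mice examined (Dixon's criterion at 95% for the gap to the nearest mouse, which chance meets in about 1 of 20 groups). Adcy2 in NA1b was at 0.151 UMIs per 10000 in mouse 1, and Adcy2 in NA1c was at 0.0142 in mouse 5 and at 0 in the other 4 mice. Adcy5 in NA1a was at 0.0155 in mouse 1 and at 0 in the other 4. The Adcy2 value in NA1c and the Adcy5 value rest on 1 UMI each, and with 4 mice at 0 any value above 0 in the fifth meets this criterion.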

How the results depend on the processing

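Of the cyclase levels, 279 of 296 alternative values stayed within 1 SD, as did 21 of 39 shares of neurons with a UMI. Of the log2 differences, 401 of 440 were scored as unchanged. Called differences and those by Npy had to keep their direction and call. Subtype differences that were not called had to stay within 1 standard error, whatever their sign. The cause was not tested for any value below. Sparse counts limit all of them, since 4 of the 8 genes did not reach the filter, and NA3, Ach1 and Ach2 had values in 3 mice or fewer.

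Called genes numbered 256 between NA1b and NA1a, with 161 without a filter, 421 with a pseudocount of 1, 87 with thinned neurons and 102 (without mouse 1) to 207 with 1 mouse left out, with 159 without mouse 5. Between NA1c and NA1a there were 351, with 167 without a filter, 84 thinned and 129 (without mouse 1) to 251 with 1 mouse left out, with 183 without mouse 4. NA2 against NA1a gave 3005, and 1712 thinned. NA1b against NA1c gave 95, with 148 at a pseudocount of 1, 47 thinned, 159 summed and 61 (without mouse 4) to 136 with 1 mouse left out. By Npy in NA1a the 1 call became 0 without a filter and 0 thinned. In NA1b the 3 became 1 at a pseudocount of 1. In NA1c the 10 became 1 without a filter, 5 at a pseudocount of 1, 2 thinned and 134 summed, and 1 (without mouse 4) to 45 (without mouse 5) with 1 mouse left out, with 2 without mouse 3. For the difference between NA1b and NA1a the 2 became 0 without a filter, 1 at a pseudocount of 1, 1 thinned and 1 (without mouse 1, 4 or 5) to 3 with 1 mouse left out.

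Without the replicate block, which pairs profiles of a mouse, 180 genes were called between NA1b and NA1a, 0 by Npy in NA1a and 5 by Npy in NA1c. No cyclase call changed without it.

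The Npy differences of cyclases that changed sign, none of them called, were on the log2 scale Adcy7 in NA1a (0.0191 thinned), Adcy1 in NA1b (-0.13 thinned, -0.15 summed, -0.12 to 0.10 with 1 mouse left out), Adcy3 in NA1b (0.21 summed, -0.46 to 0.25 with 1 mouse left out), Adcy6 in NA1b (0.16 thinned), Adcy3 in NA1c (-0.0786 thinned) and Adcy6 in NA1c (-0.00396 summed). For the difference between NA1b and NA1a they were Adcy6 (1.00 thinned, 0.15 summed, -0.27 to 0.00230 with 1 mouse left out) and Adcy9 (-0.58 to 0.0880 with 1 mouse left out). The share of NA1b neurons with an Adcy1 UMI was 22.1% in thinned neurons, and 0 of the 5 genes most like Adcy1 were named by Spearman's rho.

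Of the calls in NA2 and NA3, Adcy6 was not called without a filter, at a pseudocount of 1 (-0.30) or summed (-1.08), Adcy9 not when thinned (-1.39), and Adcy3 in NA3 not without a filter, at a pseudocount of 1 (-0.34), with fewer neurons required (-0.88) or thinned (-1.15).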

Other observations

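Below 3000 UMIs, neither the share of neurons with an Adcy1 UMI nor the mean level was higher in NA1b than in NA1a. In deeper neurons both were higher in NA1b. Among NA1a neurons the mean level was 1.05 UMIs per 10000 below 3000 UMIs, 0.365 from 3000 to below 6000 and 0.183 at 6000 or more. Among NA1b neurons it was 0.967, 1.31 and 1.36, and among NA1c neurons 0.177, 0.290 and 0.371. The shallow NA1a value comes from 7 of 39 neurons. These values pool the neurons of all mouse names, and the NA1a neurons of the unmatched names were shallower. In the Ach2 neurons, which had the most Adcy2 and Adcy8 per UMI, the barcodes shared between libraries held no UMI of either gene, and the summed Adcy8 level was 0.480 UMIs per 10000 in all 62 neurons and 0.531 in the 47 without shared barcodes.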
